A study of Bos taurus with 16 samples.

Results

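The genes described here encode the enzymes of the tricarboxylic acid (TCA) cycle, the enzymes that feed pyruvate into it, and the enzymes that break down the branched-chain amino acids leucine, isoleucine and valine. They are 42 genes, taken by exact match of the gene name, and all 42 were found among the 38959 genes of the first blastocyst table, the 37429 of the second and the 28303 of the stem cell table. Bovine blastocysts of day 8, made by in vitro fertilization, and bovine embryonic stem cells (bESCs) were compared with and without LY2955303 (LY), an inhibitor of the retinoic acid receptor RARγ. All samples were labelled wild type (WT). The first experiment had 3 DMSO blastocysts, which received the vehicle, and 3 LY10 blastocysts, cultured with 10 μM LY from the 2-cell stage. The second had 2 blastocysts each of cell2_LY, cell16_LY and LY_DMSO, that is given LY from the 2-cell stage on, given LY from the 16-cell stage on, or given the vehicle. The labels give no dose for cell2_LY and cell16_LY, and both were compared with the same LY_DMSO blastocysts. In the methods, the culture medium of the DMSO and LY10 embryos held LIF, FGF2 and IGF1. The bESCs were 2 cultures without LY (bESC_tifx) and 2 with LY (bESC_LY, given 10 μM for 3 days, a dose that the labels do not give), numbered 2 and 3 in each medium, which according to the methods grew on mouse embryonic fibroblast feeders in TiFX medium, a medium with several kinase and signaling inhibitors. The stem cells came from lines derived earlier, and the labels do not say whether cultures 2 and 3 are separate lines.

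In the mitochondrion, pyruvate dehydrogenase turns pyruvate into acetyl-CoA, which citrate synthase joins to oxaloacetate, and the cycle then releases carbon dioxide and passes electrons to the respiratory chain. Branched-chain amino acids are first transaminated and then oxidized by a dehydrogenase complex built like pyruvate dehydrogenase, after which leucine ends in acetyl-CoA and acetoacetate, while valine and isoleucine end partly in propionyl-CoA and enter the cycle as succinyl-CoA. Preimplantation bovine embryos take up pyruvate, lactate and amino acids from their medium, and oxidation of these is a main source of ATP before the blastocyst stage.

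Each blastocyst library came from 1 embryo, according to the methods, and was amplified by PCR. Reads on genes ranged from 7905768 to 15137567 in the first blastocyst table, from 11336091 to 17343140 in the second and from 29055323 to 31230432 in the bESC table. Levels below are FPKM, fragment counts divided by gene length and by library size, which allow genes to be compared with each other within a table. Changes are log2 fold changes of normalized counts with their standard error (SE), from a limma fit over all tested genes. A gene was called where its unadjusted p was under 0.05 and its absolute log2 fold change above 1, the threshold of the study. All libraries carry the batch label 1, which leaves no batches to compare, and because the 3 tables were normalized separately no test was made between them. Trophectoderm markers, a list of 14 genes, summed to between 3160 and 10500 FPKM in the 12 blastocysts and to between 136 and 451 in the bESCs. In the bESCs PAG2, PAG11 and IFNT2 were listed at 0. Of the 14, 4 in bESC_tifx and 5 in bESC_LY were at 1 FPKM or more in every culture. Epiblast markers summed to between 1290 and 1350 FPKM in the bESCs, over the 7 of 9 listed genes found in their table. A list of 8 fibroblast markers summed to between 70.8 and 72.6 FPKM in the bESCs. A whole blastocyst holds several cell types, so fewer cells of a type and less RNA per cell cannot be told apart.

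Without LY, the 42 genes spanned a wide range of levels. In DMSO blastocysts the highest mean was that of MDH1, the cytosolic malate dehydrogenase, at 577 ± 150 FPKM (SD, n = 3), and the lowest that of BCAT2, the mitochondrial branched-chain aminotransferase, at 0.391 ± 0.328 FPKM. The median of the 42 means was 23.9 FPKM in DMSO, 29.2 in LY_DMSO and 29.8 in bESC_tifx. In LY_DMSO blastocysts MDH1 was again the highest, at 784 ± 53.7 FPKM (n = 2), and BCAT2 again the lowest, at 0.545 ± 0.146. Of the 41 pairs of neighbours in the order of means, the libraries of only 3 did not overlap in DMSO, and of only 11 in LY_DMSO, so most neighbours in that order were not separated. The order itself was alike in the vehicle groups of the 2 experiments, with a Spearman correlation of 0.963 over the 42 genes, and less alike between DMSO blastocysts and bESC_tifx, at 0.629. These correlations are across genes, which are not independent replicates. Both blastocyst tables list the same length for all 42 genes, whereas the bESC table rests on other gene models and lists the same length for only 1, DLAT. On RPM, reads relative to library size with no division by length, the correlation of DMSO with bESC_tifx was 0.493.

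**Figure D1:**
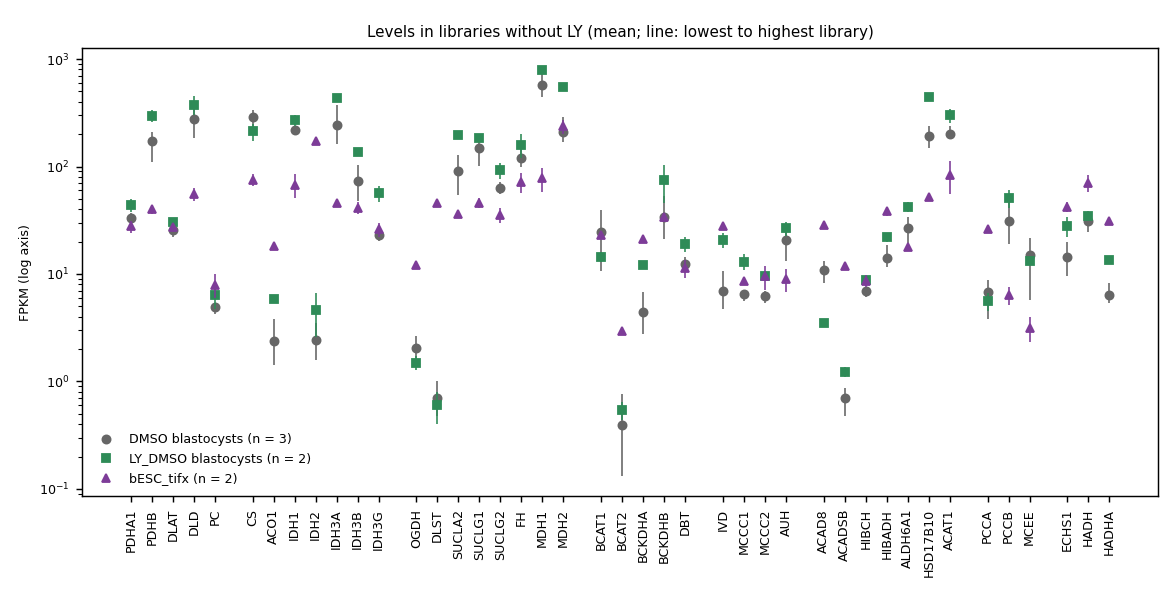
FPKM (log axis) of the 42 genes in libraries without LY, in DMSO blastocysts (circles, 3 libraries), LY_DMSO blastocysts (squares, 2) and bESC_tifx cultures (triangles, 2), where each symbol is a mean and each line runs from the lowest to the highest library. Gaps separate the groups of genes by role, from pyruvate entry on the left to the enzymes shared with fatty acid oxidation on the right. IDH2 and DLST lie far higher in bESCs, and MDH1 and HSD17B10 lower, while other genes, ACADSB among them, were divided by very different gene lengths in the bESC table.

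The ratio of some paired genes differed between blastocysts and bESCs. For SUCLA2 to SUCLG2, MCCC1 to MCCC2 and HADHA to HADH the ratios overlapped. That of SUCLA2 to SUCLG2 was between 0.464 and 2.53 in blastocysts and between 0.921 and 1.1 in bESCs. IDH1, the cytosolic NADP-dependent isocitrate dehydrogenase, stood at 219, 199 and 232 FPKM in the DMSO blastocysts, and its mitochondrial counterpart IDH2 at 3.48, 2.15 and 1.59. In bESC_tifx IDH2 was the higher, with IDH1 at 84.9 and 51.2 FPKM and IDH2 at 172 in both cultures. Over all 7 groups the ratio of IDH1 to IDH2 was between 20.9 and 145 in every blastocyst and between 0.298 and 0.493 in every bESC culture. DLST, the succinyltransferase core of the 2-oxoglutarate dehydrogenase complex, was between 0.248 and 1.09 FPKM in the 12 blastocysts and between 41.9 and 51.6 in the 4 bESC cultures. The subunits of propionyl-CoA carboxylase, PCCA and PCCB, also differed in their ratio, which was between 0.0655 and 0.305 in blastocysts and between 3.57 and 4.85 in bESCs. In mean FPKM, bESC_tifx was above both vehicle groups for 15 of the 42 genes and below both for 19, and in mean RPM above for 15 and below for 22. The gene lengths of the bESC table differed from those of the blastocyst tables by more than 1.5 times for 8 genes. OGDH was listed with 5642 bases against 2700, BCAT1 with 3225 against 10209, AUH with 943 against 1776 and PCCB with 4296 against 2195, and these lengths enter every FPKM ratio between the tables. On RPM the ratio of IDH1 to IDH2 was between 32.5 and 225 in blastocysts and between 0.515 and 0.851 in bESCs, and that of PCCA to PCCB between 0.0799 and 0.372 and between 2.28 and 3.1. DLST was between 0.488 and 2.13 RPM in blastocysts and between 111 and 137 in bESCs. Blastocysts and bESCs were also extracted with different kits and sequenced to different depths, so cell type, preparation and gene model cannot be told apart.

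In the first experiment the genes of both pathways were, for the most part, at higher levels in LY10 than in DMSO blastocysts. BCAT2 fell below the filter on low counts, and of the 41 genes tested 37 had a positive and 4 a negative log2 fold change, whereas 47.4% of all 14249 tested genes had a positive one. The median over the 41 genes was 0.55, and over all tested genes it was -0.05. Called were 11 of the 41 genes (26.8%), all of them higher in LY10, where the background was 6.2% of all tested genes called higher, 8.51% called lower and 14.7% in either direction. At an unadjusted p under 0.05, 19 genes were higher and 1 lower, against 10.8% and 12.2% of all tested genes. The 3 LY10 blastocysts lay above all 3 DMSO blastocysts for 19 genes and below them for 1, OGDH, against 13.8% and 14.4% of all tested genes. No member passed Benjamini-Hochberg adjustment over all tested genes, the smallest adjusted p being 0.0783. Across all genes 2 (0.014%) passed adjustment by limma and 0 with voom weights on the recovered reads, which called 13 members, 11 higher and 2 lower.

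**Figure D2:**
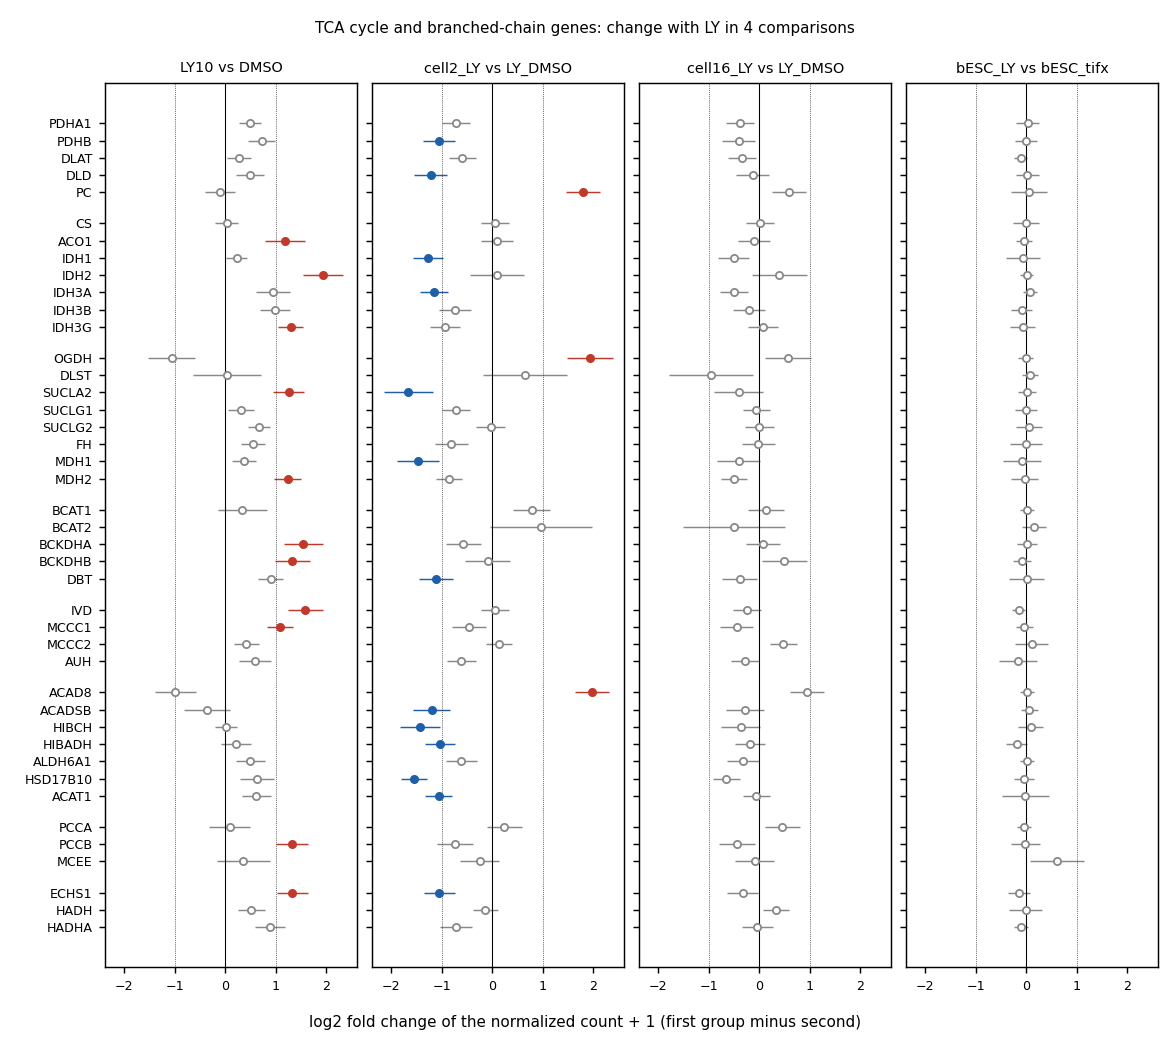
Log2 fold change of the normalized count for the 42 genes, grouped by role from top to bottom, in the 4 comparisons of LY with its control, with bars of 1 SE from limma. Filled red points were called higher and filled blue points lower, open points were not called, dotted lines mark a log2 fold change of 1 in each direction, and BCAT2 was not tested in LY10 against DMSO. There are 11 red points in LY10, 3 red and 13 blue in cell2_LY, and no filled point in cell16_LY or in bESCs.

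None of the 5 pyruvate entry genes was called in LY10 by limma, 2 were higher at an unadjusted p under 0.05, and their median log2 fold change was 0.49. PDHB, which encodes a subunit of the first component of pyruvate dehydrogenase, had the largest difference of the 5, a log2 fold change of 0.72 ± 0.27 (SE). PC, the pyruvate carboxylase that makes oxaloacetate directly from pyruvate, had one of -0.11.

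The 7 genes for the steps from citrate formation to 2-oxoglutarate include ACO1 and IDH1, whose enzymes are cytosolic. All 7 had a positive log2 fold change, with a median of 0.99, and 3 of them were called. IDH2, on chromosome 21 at 21478221 to 21494525 (minus strand, positions as in ARS-UCD2.0), had the largest change of all 41 genes. It was at 6.99, 10.1 and 9.99 FPKM in LY10, against 3.48, 2.15 and 1.59 in DMSO, so the groups did not overlap. Its log2 fold change was 1.94 ± 0.40 (adjusted p = 0.0783), a fold of 3.83. IDH3G, a regulatory subunit of the NAD-dependent isocitrate dehydrogenase of the cycle, was at 44.7, 61.5 and 67.4 FPKM in LY10 and at 22.9, 20.4 and 26.4 in DMSO. All LY10 blastocysts were above all DMSO blastocysts, and IDH3G had the smallest p of the members, with a log2 fold change of 1.30 ± 0.25 (adjusted p = 0.0783). Its partner subunits IDH3A and IDH3B had log2 fold changes of 0.95 ± 0.34 and 0.99 ± 0.30, just under the size needed for a call. ACO1, the cytosolic aconitase that also acts as an iron-responsive RNA-binding protein, was at 5.23, 5.61 and 4.24 FPKM in LY10 and at 1.95, 1.41 and 3.81 in DMSO. The highest DMSO library, replicate 3, came close to the lowest LY10 library, and the log2 fold change was 1.18 ± 0.40 (adjusted p = 0.137). CS, the citrate synthase, was nearly equal in both groups, at 288 ± 33.6 FPKM in LY10 and 286 ± 63.6 in DMSO, with a log2 fold change of 0.03 ± 0.23.

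For the steps from 2-oxoglutarate to oxaloacetate 7 of 8 genes had a positive log2 fold change, with a median of 0.46, and 2 were called. MDH2, the mitochondrial malate dehydrogenase that regenerates oxaloacetate, was at 549, 391 and 516 FPKM in LY10 and at 168, 176 and 286 in DMSO. The groups did not overlap, and the log2 fold change was 1.24 ± 0.27 (adjusted p = 0.0783). MDH1, its cytosolic counterpart, had a log2 fold change of 0.37 ± 0.24 and overlapping groups. The ratio of MDH2 to MDH1 was between 0.319 and 0.387 in DMSO and between 0.582 and 0.747 in LY10. In LY_DMSO, the vehicle group of the second experiment, it was between 0.614 and 0.787, a range that overlaps that of LY10. SUCLA2, the ADP-forming subunit of succinyl-CoA ligase, was at 205, 221 and 187 FPKM in LY10 and at 88.5, 54.2 and 128 in DMSO. All 3 LY10 blastocysts were above the DMSO blastocysts, and the log2 fold change was 1.26 ± 0.31 (adjusted p = 0.0843). The other two subunits of succinyl-CoA ligase were not called, with log2 fold changes of 0.67 ± 0.21 for SUCLG2 and 0.32 ± 0.26 for SUCLG1.

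OGDH, named for the first component of the 2-oxoglutarate dehydrogenase complex, went the other way. It was at 1.28, 0.723 and 0.90 FPKM in LY10 and at 1.48, 2.63 and 2.05 in DMSO, with no overlap and a log2 fold change of -1.06 ± 0.47 (adjusted p = 0.221), which was not called. These values rest on between 20 and 76 reads per library. The gene model named OGDH covers only chromosome 4, 76758600 to 76768457, on the minus strand. Upstream of it on the same strand, at 76778081 to 76844656, lies LOC132342072, which the RefSeq annotation of ARS-UCD2.0 describes as OGDH-like, so that reads of one enzyme may be divided between both models. LOC132342072 had a log2 fold change of -0.38 ± 0.40 in LY10, and the level of OGDH is therefore uncertain.

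Among the 5 genes of the shared first steps of branched-chain breakdown, 4 were tested, all had a positive log2 fold change, and 2 were called. BCKDHA and BCKDHB encode both subunits of the decarboxylase component of the branched-chain ketoacid dehydrogenase complex, the committed step of the pathway. BCKDHA was at 12, 11.6 and 12.8 FPKM in LY10 and at 2.77, 3.66 and 6.79 in DMSO, with a log2 fold change of 1.55 ± 0.38 (adjusted p = 0.0843). BCKDHB was at 92.0, 68.7 and 75.1 FPKM in LY10 and at 26.9, 21.0 and 53.1 in DMSO, with a log2 fold change of 1.33 ± 0.35 (adjusted p = 0.0915). For both, the groups did not overlap and DMSO replicate 3 was the highest of its group. DBT, the acyltransferase core of the same complex, also did not overlap between groups and had a log2 fold change of 0.90 ± 0.24, under the size needed for a call. BCAT1, the cytosolic aminotransferase, overlapped between groups at 0.34 ± 0.48.

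The leucine branch had 4 positive log2 fold changes of 4, with 2 genes called. IVD, isovaleryl-CoA dehydrogenase, was at 22.8, 18.2 and 18.8 FPKM in LY10 and at 5.64, 4.69 and 10.7 in DMSO, with a log2 fold change of 1.59 ± 0.34 (adjusted p = 0.0783), a fold of 3.02. MCCC1, the biotin-carrying subunit of methylcrotonyl-CoA carboxylase, was at 12.3, 14.8 and 14.3 FPKM in LY10 and at 7.0, 5.60 and 6.85 in DMSO, with a log2 fold change of 1.09 ± 0.26 (adjusted p = 0.0816). Neither gene overlapped between the groups. MCCC2, the other subunit of the carboxylase, had a log2 fold change of 0.42 ± 0.25, and AUH, the hydratase of the next step, one of 0.59 ± 0.31.

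In the valine and isoleucine branch 0 of 7 genes were called by limma, where 14.7% of all tested genes were, and 0 were higher at an unadjusted p under 0.05. Its median log2 fold change was 0.21, and it ranged from -0.99 for ACAD8 to 0.63 for HSD17B10. The difference between the branches was not tested. ACAD8, isobutyryl-CoA dehydrogenase of valine breakdown, was the 1 member lower at an unadjusted p under 0.05 (log2 fold change -0.99 ± 0.41, adjusted p = 0.2). It was at 9.41, 3.85 and 4.15 FPKM in LY10 and at 13.2, 8.30 and 10.9 in DMSO, so LY10 replicate 1 lay within the DMSO range. Further down, PCCB of propionyl-CoA carboxylase was at 82.5, 64.8 and 73.3 FPKM in LY10 and at 28.7, 19.0 and 46.3 in DMSO, with a log2 fold change of 1.32 ± 0.32 (adjusted p = 0.0843). Its partner subunit PCCA had one of 0.09 ± 0.41. Of the 3 enzymes shared with fatty acid oxidation, ECHS1, the short-chain enoyl-CoA hydratase, was called, at 32.0, 40.9 and 31.1 FPKM in LY10 and 13.5, 9.49 and 19.8 in DMSO, with a log2 fold change of 1.33 ± 0.31 (adjusted p = 0.0805). HADHA, of the trifunctional protein, also did not overlap between groups, at 0.89 ± 0.29.

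DMSO replicate 3 lay nearest to the LY10 blastocysts over these genes. Its median deviation from the mean of the DMSO group was 0.28 on the log2 scale, and it was above that mean for 32 of 41 genes, against 20 for DMSO replicate 1 and 9 for DMSO replicate 2. Without it 15 members were called, all higher, and the median log2 fold change was 0.72. Of the 11 calls, 8 held in all 17 alternative analyses. The exceptions were ACO1, SUCLA2 and MCCC1, each of which was no longer called without DMSO replicate 2. Summed epiblast markers were also higher, between 610 and 930 FPKM in LY10 and between 412 and 577 in DMSO. Trophectoderm and hypoblast sums had higher medians in LY10 too, with overlapping groups. Trophectoderm markers summed to between 4510 and 10500 FPKM in LY10 and between 3160 and 7840 in DMSO, and hypoblast markers to between 230 and 356 and between 166 and 283. A list of 8 fibroblast markers went the other way, between 6.10 and 11.7 FPKM in LY10 and between 24.4 and 91.1 in DMSO. The part of these lists in the differences was not tested.

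Genes next to these pathways were taken from lists chosen with earlier results known. Among all tested genes, 6.2% were called higher in LY10, 8.51% lower and 14.7% in either direction, and the median log2 fold change was -0.05. On the TCA side 32 of 37 could be tested in LY10 against DMSO, of which 6 were called higher and 1 lower, and the median difference was 0.69 (log2). Among the former was SDHA, the catalytic subunit of succinate dehydrogenase, with 122 ± 26.4 FPKM in LY10 and 45.4 ± 13.2 in DMSO (log2 fold change 1.45 ± 0.28). SLC25A11, the carrier that exchanges 2-oxoglutarate for malate across the inner membrane, was at 56.1 ± 12.1 and 15.2 ± 5.56 FPKM (1.93 ± 0.33), and the largest change was that of PCK2, mitochondrial phosphoenolpyruvate carboxykinase, at 3.59 ± 0.82. ACSS1 and the carrier SLC25A12 were also called higher, and ME1, the cytosolic malic enzyme, was the gene called lower, at -2.68 ± 0.73. On the branched-chain side 27 of 29 could be tested, and 5 were called higher and 0 lower, and the median difference was 0.78. These were MMAA, ACADS, ALDH7A1, ALDH9A1 and SLC3A2, the last being the heavy chain of the amino acid transporters that carry leucine, at 1.97 ± 0.40.

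In the second experiment, blastocysts with LY from the 2-cell stage differed from their vehicle group mostly in the opposite direction. All 42 genes were tested in cell2_LY against LY_DMSO, and 12 had a positive and 30 a negative log2 fold change, where 50.1% of all 14529 tested genes had a positive one. The median was -0.67, and 0 over all tested genes. Called were 16 genes, 3 higher and 13 lower, against a background of 8.71% of all tested genes called higher, 8.34% lower and 17% in either direction. The cell2_LY libraries lay above both LY_DMSO libraries for 5 genes and below both for 25, each direction against 26.9% of all tested genes. None passed adjustment over all tested genes, where 2 genes (0.0138%) did by limma and 0 with voom weights and the smallest adjusted p of a member was 0.0711, and 23 members had an unadjusted p under 0.05, 3 higher and 20 lower. With voom weights the counts called were the same, 3 higher and 13 lower.

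The 3 genes called higher lie on different chromosomes, PC on 29 (44862567 to 44965313), ACAD8 on 15 (83525512 to 83539318) and OGDH on 4. PC was at 24.6 and 18.7 FPKM in cell2_LY and at 8.04 and 4.69 in LY_DMSO, with a log2 fold change of 1.80 ± 0.33 (adjusted p = 0.0711). ACAD8 was at 13.1 and 14.7 FPKM in cell2_LY and at 3.79 and 3.21 in LY_DMSO, with a log2 fold change of 1.98 ± 0.34 (adjusted p = 0.0711). OGDH was at 7.40 and 4.43 FPKM in cell2_LY and at 1.71 and 1.28 in LY_DMSO, with a log2 fold change of 1.94 ± 0.45 (adjusted p = 0.0782). For all 3, both cell2_LY libraries were more than 2 times the higher LY_DMSO library. The neighbouring model LOC132342072 had a log2 fold change of 0.20 ± 0.45, so the difference at OGDH was not shared by the model upstream.

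HSD17B10 had the smallest p of the 42 genes. It encodes a dehydrogenase of isoleucine breakdown that is also a subunit of mitochondrial RNase P, and it was at 133 and 174 FPKM in cell2_LY and at 442 and 449 in LY_DMSO. Both cell2_LY libraries were far below the vehicle libraries, which were nearly equal, and the log2 fold change was -1.55 ± 0.26 (adjusted p = 0.0711). It lies on the X chromosome, at 90870246 to 90872569, on the minus strand. In the same branch, ACAT1, the thiolase of the last isoleucine step, was at 132 and 150 FPKM in cell2_LY and at 343 and 255 in LY_DMSO (log2 fold change -1.06 ± 0.27). HIBCH and HIBADH, which act one after the other in valine breakdown, had log2 fold changes of -1.43 ± 0.39 and -1.03 ± 0.30. HIBCH was at 2.11 and 5.06 FPKM in cell2_LY and at 8.69 and 8.88 in LY_DMSO, and HIBADH at 10.7 and 10.8 and at 20.0 and 24.1. ACADSB, the short/branched-chain acyl-CoA dehydrogenase of isoleucine breakdown, was at 0.634 and 0.444 FPKM in cell2_LY and at 1.10 and 1.36 in LY_DMSO (-1.20 ± 0.37). With ACAD8, 6 of the 7 genes of the valine and isoleucine branch were thus called, 1 higher and 5 lower. Of these, ACAD8 and HSD17B10 were called in all 16 alternative analyses, while ACAT1, HIBCH, HIBADH and ACADSB were each lost in at least 1. The values of ACADSB are also uncertain because of its gene model, described below. Of the 4 leucine branch genes 0 were called by limma and 0 had an unadjusted p under 0.05, where 17% of all tested genes were called, and the difference between the branches was not tested.

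Of the shared first steps, DBT was called lower, at 8.54 and 8.69 FPKM in cell2_LY and at 21.9 and 16 in LY_DMSO (log2 fold change -1.12 ± 0.34). BCKDHA had a log2 fold change of -0.57 ± 0.34, and BCKDHB, with overlapping groups, one of -0.09 ± 0.44. DLD, the lipoamide dehydrogenase that the pyruvate, 2-oxoglutarate and branched-chain complexes share, was at 125 and 200 FPKM in cell2_LY and at 449 and 300 in LY_DMSO (-1.22 ± 0.33). PDHB was at 108 and 187 FPKM in cell2_LY and at 339 and 257 in LY_DMSO (-1.05 ± 0.32). Neither overlapped between the groups.

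Of the 7 genes for the steps from citrate formation to 2-oxoglutarate, 2 were called lower. IDH1 was at 133 and 92.0 FPKM in cell2_LY and at 236 and 302 in LY_DMSO (log2 fold change -1.27 ± 0.30, adjusted p = 0.0782). IDH3A, the catalytic subunit of the NAD-dependent isocitrate dehydrogenase, was at 160 and 240 FPKM in cell2_LY and at 427 and 448 in LY_DMSO (-1.16 ± 0.28). CS, ACO1 and IDH2 overlapped between the groups, at 0.05 ± 0.28, 0.09 ± 0.32 and 0.09 ± 0.54. For the steps from 2-oxoglutarate to oxaloacetate, SUCLA2 was at 35.2 and 108 FPKM in cell2_LY and at 196 and 194 in LY_DMSO (-1.66 ± 0.49), and MDH1 at 176 and 454 and at 746 and 822 (-1.47 ± 0.42). In both, cell2_LY replicate 1 was much the lower of its group. MDH2 was at 264 and 341 FPKM in cell2_LY and at 588 and 505 in LY_DMSO, without overlap, and at -0.86 ± 0.26 was under the size needed for a call. Among the enzymes shared with fatty acid oxidation, ECHS1 was called lower, at 12.1 and 14.3 FPKM in cell2_LY and at 21.9 and 34.1 in LY_DMSO (-1.05 ± 0.31).

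The count of genes called lower depended on cell2_LY replicate 1. The library size by which the authors divided this library was 1.232 times its reads on genes, against 0.9487 to 1.038 times in the other 5 libraries of the table. When reads on genes were used as library size for all libraries, 9 members were called, 4 higher and 5 lower, and their median was -0.43 while that of all genes moved from 0 to 0.24. Without cell2_LY replicate 1, 8 were called, 3 higher and 5 lower, with a median of -0.44. PC, OGDH, ACAD8 and HSD17B10 were called in all 16 alternatives. Trophectoderm markers summed to 6390 and 8980 FPKM in cell2_LY and to 4590 and 5810 in LY_DMSO, and their part in these differences was not tested.

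Of the 32 neighbouring genes tested on the TCA side 4 were called higher and 2 lower in cell2_LY, and of the 27 on the branched-chain side 3 and 5, where 17% of all tested genes were called. Their log2 fold changes went both ways, 15 positive and 17 negative with a median of -0.13 on the TCA side and 15 and 12 with a median of 0.11 on the other. GOT1, the cytosolic aspartate aminotransferase, was lower, at 27.5 ± 3.77 FPKM in cell2_LY and 95.1 ± 27.1 in LY_DMSO (log2 fold change -1.77 ± 0.28), as was PDK3, a kinase that inactivates pyruvate dehydrogenase (-1.57 ± 0.56). SLC25A1, the mitochondrial citrate carrier, was higher, at 46.0 ± 3.01 and 15.2 ± 2.64 FPKM (1.61 ± 0.27), together with ACSS2, ME1 and SLC25A10. On the branched-chain side ALDH3A2, SLC43A1 and SLC43A2 were called higher and MMAA, MMACHC, ACADM, HADHB and SLC3A2 lower. ACADM, the medium-chain acyl-CoA dehydrogenase, was at 28.7 ± 12.7 FPKM in cell2_LY and at 73.6 ± 7.22 in LY_DMSO (-1.43 ± 0.40). HADHB, the partner of HADHA in the trifunctional protein, was at -1.18 ± 0.31.

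**Figure D3:**
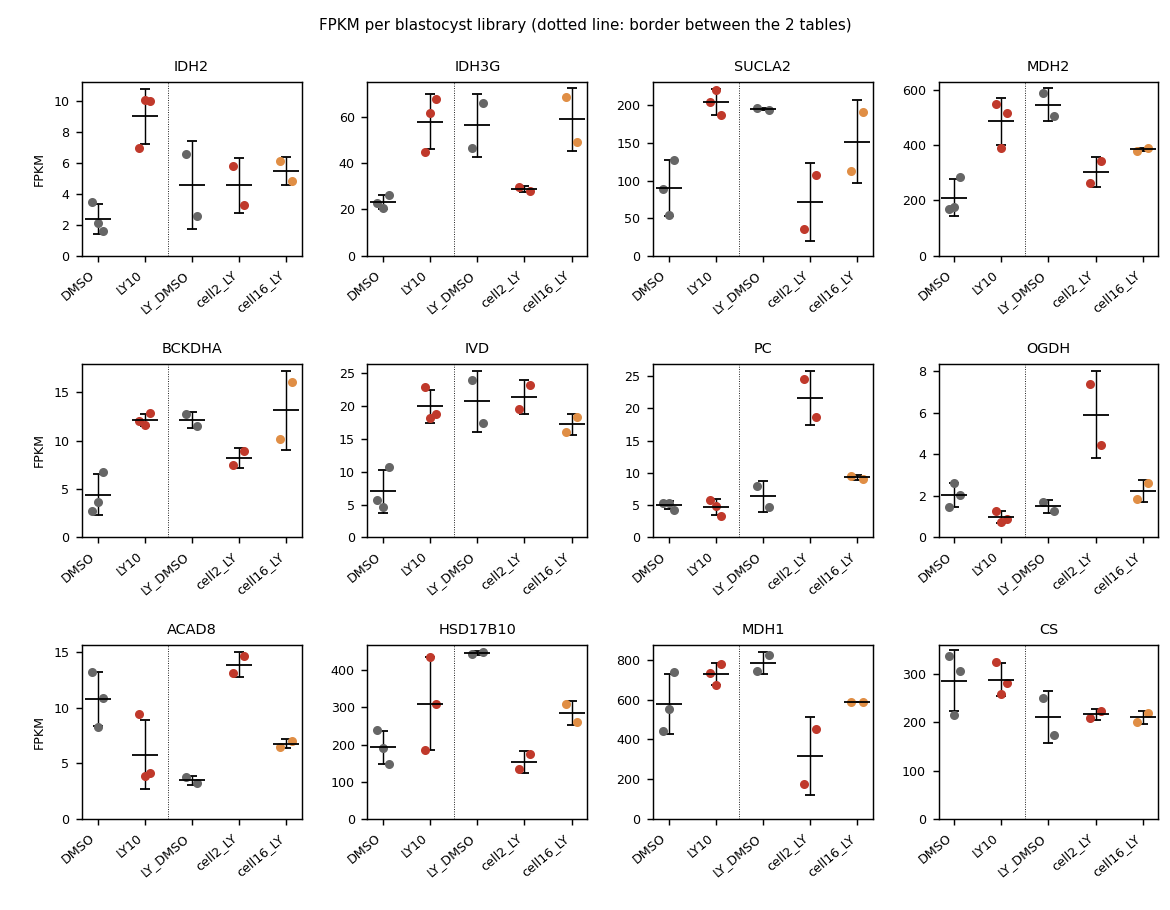
FPKM of 12 of the genes in each of the 12 blastocyst libraries (points), with the mean (dash) and SD (bars) of each group, on axes that start at 0, where the dotted line separates the first experiment from the second. IDH2, IDH3G, SUCLA2, MDH2, BCKDHA and IVD are higher in LY10 than in DMSO, PC, OGDH and ACAD8 are highest in cell2_LY within the second experiment, and CS is nearly level within each experiment.

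Side by side, the 2 experiments with LY from the 2-cell stage gave opposite signs for most of these genes. Of the 41 genes tested in both, 29 had a positive log2 fold change in LY10 and a negative one in cell2_LY (70.7%), whereas 26.9% of the 13019 genes tested in both did so. Signs were opposite for 78% of the 41 genes and for 52% of all genes. SUCLA2 and ECHS1 were the 2 genes called in both, higher in LY10 and lower in cell2_LY. OGDH and ACAD8 had the reverse signs, negative in LY10 and positive in cell2_LY. No test of the difference between the experiments was made, since their tables were normalized separately and LY_DMSO and DMSO blastocysts were not processed in 1 table. The vehicle groups themselves differed in mean FPKM, which was normalized separately in the 2 experiments. The counts that follow were not made over all genes. A shift of scale between the experiments would enter these counts, and its part in them was not tested. Ratios within a library do not depend on such a shift. That of MDH2 to MDH1 was between 0.319 and 0.387 in DMSO and between 0.614 and 0.787 in LY_DMSO. That of PDHA1 to PDHB overlapped between the vehicle groups, at 0.132 to 0.313 in DMSO and 0.111 to 0.192 in LY_DMSO. LY_DMSO had a higher mean FPKM than DMSO for 35 of the 42 genes and cell2_LY a lower one than LY10 for 34, while cell2_LY was above DMSO for 21. MDH2, for example, had mean levels of 210 FPKM in DMSO, 485 in LY10, 546 in LY_DMSO and 302 in cell2_LY.

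**Figure D4:**
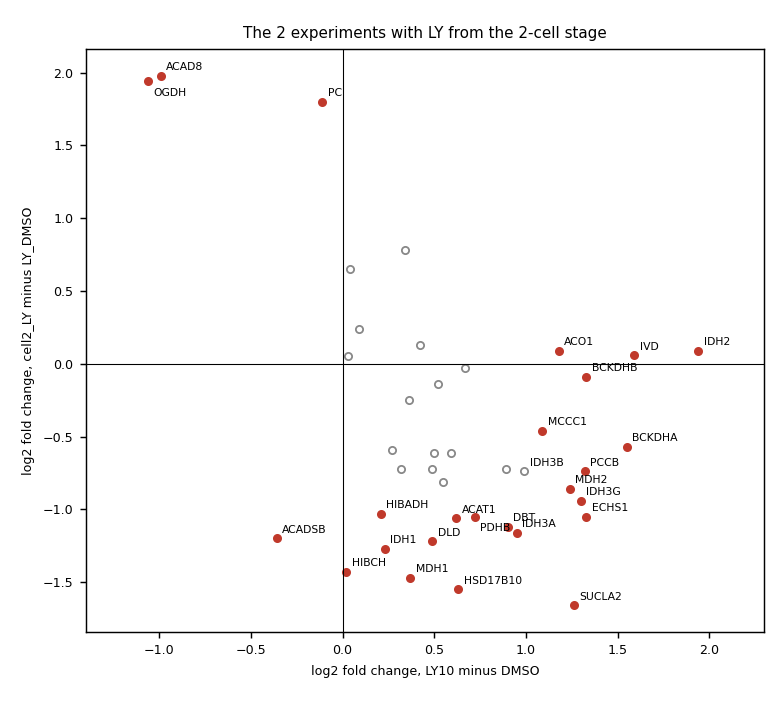
Log2 fold change of each of the 41 genes tested in both experiments, LY10 minus DMSO on the horizontal axis and cell2_LY minus LY_DMSO on the vertical axis. Filled points were called in at least 1 of the comparisons, 29 points lie at the lower right, and OGDH and ACAD8 lie at the upper left.

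With LY from the 16-cell stage, no gene of the 42 differed from the vehicle past the threshold. In cell16_LY against LY_DMSO 12 genes had a positive and 30 a negative log2 fold change, where 49.5% of all tested genes had a positive one. The median was -0.19, and -0.01 over all tested genes. None was called by limma or with voom weights, where limma called 3.25% of all tested genes higher, 1.97% lower and 5.22% in either direction. At an unadjusted p under 0.05, ACAD8 was higher and HSD17B10 lower, against 4.37% and 3.25% of all tested genes and 7.62% in either direction. The cell16_LY libraries lay above both LY_DMSO libraries for 5 genes and below both for 18, against 20.9% and 22% of all tested genes. ACAD8 was at 6.49 and 7.06 FPKM in cell16_LY and at 3.79 and 3.21 in LY_DMSO, with no overlap and a log2 fold change of 0.95 ± 0.34 (adjusted p = 0.613). HSD17B10 was at 308 and 261 FPKM in cell16_LY and at 442 and 449 in LY_DMSO, also with no overlap, and its log2 fold change was -0.65 ± 0.26 (adjusted p = 0.62). MDH2, with the next smallest p, was at 379 and 389 FPKM in cell16_LY and at 588 and 505 in LY_DMSO (log2 fold change -0.50 ± 0.26, adjusted p = 0.706). Without LY_DMSO replicate 1, 2 genes were called higher. Trophectoderm markers summed to 6560 and 8030 FPKM in cell16_LY and to 4590 and 5810 in LY_DMSO, and epiblast markers to between 406 and 506 and to between 534 and 714. Neither list overlapped between the groups, and their part in these differences was not tested. Of the neighbouring genes, ME1 and ACSS2 were called higher and ACSS1 lower on the TCA side, and PPM1K, the phosphatase that activates the branched-chain ketoacid dehydrogenase complex, was called lower with SLC3A2 on the other, PPM1K at 3.51 ± 0.172 FPKM in cell16_LY and 11.5 ± 4.64 in LY_DMSO (-1.66 ± 0.44).

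Set directly against each other, the groups with LY from the 16-cell and from the 2-cell stage differed at 9 of the 42 genes. In cell16_LY against cell2_LY 33 had a positive and 9 a negative log2 fold change, where 52% of all tested genes had a positive one, and the median was 0.41, against 0.04 over all tested genes. Called higher in cell16_LY were 6 and lower 3, against a background of 5.58% and 5.77% of all tested genes and 11.3% in either direction. At an unadjusted p under 0.05, 14 genes were higher and 3 lower, against 10.1% and 7.73%. The libraries did not overlap for 25 genes that were higher and 5 that were lower, against 28.2% and 26.3%. This contrast and those above share libraries, so its values are not independent of theirs. The 6 genes called higher were DLD at 1.09 ± 0.33, IDH3G at 1.01 ± 0.30, SUCLA2 at 1.25 ± 0.49, MDH1 at 1.06 ± 0.42, HIBCH at 1.05 ± 0.39 and ACAT1 at 1.01 ± 0.27. DLD was at 336 and 334 FPKM in cell16_LY, and IDH3G at 68.4 and 49.2 against 29.8 and 27.9 in cell2_LY. SUCLA2 was at 113 and 191 FPKM in cell16_LY, and MDH1 at 588 and 589. HIBCH was at 6.55 and 7.04 FPKM in cell16_LY, and ACAT1 at 263 and 307. All 6 were above both cell2_LY libraries. Called lower were PC at -1.21 ± 0.33, OGDH at -1.36 ± 0.45 and ACAD8 at -1.03 ± 0.34, the same 3 that were higher in cell2_LY than in LY_DMSO. PC was at 9.58 and 9.0 FPKM in cell16_LY, and OGDH at 1.87 and 2.61, both below cell2_LY. The smallest adjusted p among the 42 was 0.193. In mean level, cell16_LY lay between cell2_LY and LY_DMSO for 29 of the 42 genes, a count that was not made over all tested genes. When reads on genes were used as library size 4 genes were called, 1 higher and 3 lower, with quantile normalization 3, 1 higher and 2 lower, and without cell2_LY replicate 1 there were 5, 3 higher and 2 lower. On the neighbouring lists 3 genes were called higher and 3 lower on the TCA side, and 5 higher and 4 lower on the branched-chain side, ACAA2, a mitochondrial thiolase, being higher at 77.2 ± 6.01 FPKM against 34.1 ± 9.74 (1.21 ± 0.29).

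In bESCs none of the 42 genes differed with LY past the threshold. All were tested, 18 had a positive and 24 a negative log2 fold change, where 47.8% of all tested genes had a positive one, and the median was -0.01. The bESC_LY cultures lay above both bESC_tifx cultures for 1 gene, BCAT2, and below both for 3, DLAT, IVD and HADHA, against 6.83% and 7.36% of all tested genes. None was called by limma or with voom weights, where limma called 0.0375% of all 16012 tested genes in each direction and 0.0749% in either, and in this fit, which takes no account of the culture number, none had an unadjusted p under 0.05, against 0.0999%, and all adjusted p were 1. With the culture number as a block, 4 members had one, MCEE higher and HIBADH, IVD and ECHS1 lower (9.52%, against 7.97% of all tested genes), and the smallest adjusted p of a member was 0.33. MCEE, methylmalonyl-CoA epimerase, had the largest difference and the smallest p, at 6.88 and 3.19 FPKM in bESC_LY and at 3.97 and 2.35 in bESC_tifx (log2 fold change 0.61 ± 0.54). The groups overlapped. IVD was at 24.9 and 25.6 FPKM in bESC_LY and at 28.8 and 27.2 in bESC_tifx (-0.15 ± 0.13), without overlap, and HIBADH was at 38.4 and 28.9 and at 42 and 34.4 (-0.19 ± 0.21). No gene of the neighbouring lists was called in either direction. These p-values rest on 2 cultures per group that are not stated to be independent, and measure only the spread between them.

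A larger difference in bESCs lay between culture numbers. In both media 35 of the 42 genes (83.3%) were higher in culture 2 than in culture 3 and 1 was lower, whereas 41.2% of all tested genes were higher and 40.8% lower. The median log2 difference between culture 2 and culture 3 was 0.30 without LY and 0.41 with LY. MDH1, for example, was at 97.1 FPKM in culture 2 and 58.3 in culture 3 without LY, and at 93.3 and 53.3 with LY, while IDH2 was at 172 in both cultures without LY and at 181 and 166 with LY. Markers of other cell types also differed by culture number. Trophectoderm markers summed to 451 FPKM in culture 2 and 150 in culture 3 without LY, and to 398 and 136 with LY. Hypoblast markers went the other way, at 42 and 149 FPKM without LY and 41.9 and 150 with LY, as did cumulus markers, at 24.6 and 68.8 and at 21.8 and 62.2, whereas epiblast markers were at 1340 and 1290 and at 1340 and 1350. Their part in the differences between cultures was not tested.

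Some of these genes cannot be measured cleanly by gene-level counts. IDH3B overlaps NOP56 and DLST overlaps RPS6KL1 on the opposite strand, and the strand setting of the counting is not stated, so reads of the 2 partners cannot be told apart. NOP56 was lower in cell2_LY than in LY_DMSO (log2 fold change -1.01 ± 0.27), where IDH3B was at -0.74 ± 0.32. CS has a copy, LOC788293, which was at 10.1, 6.72 and 10.7 FPKM in DMSO. In the blastocyst tables ACADSB and HIBCH are listed with gene lengths of 13100 and 12362 bases, by which their FPKM are divided, and in the bESC table with 1898 and 2351. The ACADSB model of the blastocyst tables carries a protein match to a LINE-1 retrotransposon, which 214 other gene models of the first table share, and its values there are therefore uncertain. DLST in blastocysts rests on as few as 8 reads in a library. Over the 5 comparisons, 25 of the 42 genes were called at least once, 10 more than once and 17 never. The same count was not made over all tested genes. Of those, 14.7% were called in LY10, 17% in cell2_LY and 5.22% in cell16_LY, each against its vehicle group. In cell16_LY against cell2_LY 11.3% were called, and in bESCs 0.0749%. Comparisons within the second experiment share libraries, so their calls are not independent.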

How the data were processed

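RNA sequencing of 12 single blastocysts and 4 bESC cultures was analysed. After trimming, alignment and counting on genes, the authors deposited FPKM, although the tables name them as normalized counts. The submitters' processing notes list HISAT2 2.0.5, StringTie 1.3.3b, featureCounts 1.5.0-p3 and DESeq2 1.20.0, while the methods also name STAR. The deposited tables carry fold changes and p-values of the authors' comparisons, which were not used. The genome build is not given in the sources used here. In the first blastocyst table, start and end equal those in ARS-UCD2.0 for 39 of the 42 genes. The bESC table uses other gene models and lengths.

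FPKM times gene length gave whole reads for 100% of values (tolerance 0.02). Reads were divided by the authors' implied library size and scaled to its geometric mean in the table. Genes whose normalized counts averaged 10 or more entered limma 3.58.1 (R 4.3.3, lmFit, eBayes with trend) on log2(normalized count + 1), with group only. In the second blastocyst table, 1 fit held its 3 groups. Adding 1 understates fold changes of genes with few reads. P-values were adjusted by Benjamini-Hochberg over all tested genes. Depth limits genes with few reads, and PCR without molecular identifiers adds error beyond counting.

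Members called, or the 3 with the smallest p where fewer than 3 were called, are given in full, others by role. Genes named outside this rule were chosen after their values were seen. Members and lists were chosen with earlier results of these data known. Alternatives were a pseudocount of 0.5 or 5, a minimum mean of 50 or no minimum, TMM factors, quantile normalization, reads on genes as library size, sample weights, voom weights on the recovered reads, log2(FPKM + 1), the replicate number as a block, a fit of 2 groups, and each library left out. The procedure was tested on simulated data. Python 3.11.15, pandas 2.3.3 and matplotlib 3.10.9 were used for tables and figures. Sequences were not analysed here, and 1 neighbouring gene that enters the counts is not reported by name.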

Additional observations from a re-analysis of the deposited data

Results flagged for a closer look

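For 9 genes the change with LY differed between the start at the 16-cell and at the 2-cell stage, each set against the same LY_DMSO blastocysts, by the limma test of cell16_LY against cell2_LY at the threshold used for calls. The same test called 11.3% of all tested genes. The difference in log2 fold change was 1.25 for SUCLA2, 1.09 for DLD, 1.06 for MDH1, 1.05 for HIBCH, and 1.01 for both IDH3G and ACAT1, and it was -1.36 for OGDH, -1.21 for PC and -1.03 for ACAD8. Of these, PC was called in all alternatives and the other 8 were lost in at least 2 of them.

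For 12 genes all LY10 blastocysts lay on one side of all DMSO blastocysts and both cell2_LY blastocysts on the opposite side of both LY_DMSO blastocysts. These differences between the experiments were not tested. Among all tested genes, the LY10 libraries lay above all DMSO libraries for 13.8% and below them for 14.4%. The cell2_LY libraries lay above both LY_DMSO libraries for 26.9% and below both for 26.9%. The share of all genes with opposite sides in both experiments was not counted. In LY10 against DMSO the log2 fold change was 1.55 for BCKDHA, 1.33 for ECHS1, 1.30 for IDH3G, 1.26 for SUCLA2, 1.24 for MDH2, 0.99 for IDH3B, 0.90 for DBT, 0.89 for HADHA, 0.72 for PDHB, 0.55 for FH and 0.49 for PDHA1, and in cell2_LY all of these were negative. OGDH had the opposite pattern, with -1.06 in LY10 and 1.94 in cell2_LY.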

How the results depend on the processing

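In LY10 against DMSO, 34 of 41 genes kept their sign over 17 alternatives, and leaving out single libraries gave 9 to 15 calls and medians of 0.49 to 0.72. In cell2_LY against LY_DMSO, 33 of 42 kept it over 16, with 8 to 21 calls and medians of -0.81 to -0.44. Reads on genes as library size gave 9 calls and a median of -0.43, and quantile normalization gave 12 calls (4 higher, 8 lower) and a median of -0.42. In cell16_LY against LY_DMSO, 27 of 42 kept it, with 0 to 2 calls and medians of -0.21 to -0.16, and the median was -0.16 with a minimum mean of 50, -0.17 with TMM factors, -0.16 with quantile normalization, -0.18 with reads on genes as library size and -0.15 on log2(FPKM + 1). In cell16_LY against cell2_LY, 34 of 42 kept it, with 5 to 13 calls and medians of 0.30 to 0.60. Calls there were 3 with quantile normalization, 4 with reads on genes as library size (median 0.20, that of all genes -0.18) and 5 on log2(FPKM + 1). In bESCs 6 of 42 kept it over 15, with 0 calls and medians of -0.19 to 0.16, and HIBADH ranged from -0.39 to 0.01 with single libraries left out, positive only without bESC_LY replicate 3. The causes were not tested beyond what each alternative leaves out. Replicate numbers are not stated to pair samples. Deviations of same-numbered libraries correlated at -0.117, 0.168 and -0.1 in LY10 and DMSO, and not every library correlated best with its own number. The replicate block left 11, 16, 0, 9 and 0 members called in the 5 comparisons. In bESCs, where the correlation was 0.789, it moved calls among all genes from 12 to 146, and members with an unadjusted p under 0.05 from 0 to 4. Groups of 2 or 3 libraries limit the precision of every comparison.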
